A study of Mus musculus with 9 samples.

Results

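The mitochondrial genome genes of Hepa1-6 cells were taken as the genes whose chromosome is given as MT in the count table, which were 37 of 56748 genes. They comprised 13 mRNA genes, 2 rRNA genes and 22 tRNA genes, 28 on the plus strand and 9 on the minus strand. Hepa1-6 is a mouse hepatoma cell line. RNA-Seq libraries were made from cells without drug (control), from cells given 37 µg/mL lefamulin and from cells given 37 µg/mL tiamulin, both for 2 days, with 3 libraries a group. No time is given for the controls. The labels give the control as not manipulated, whereas the study's methods call it vehicle-treated, and no genetic change separates the groups. Lefamulin and tiamulin are pleuromutilins with the same tricyclic core and different side chains. The doses were matched by mass and time. The study's growth assays gave a lower inhibitory concentration for lefamulin than for tiamulin in Hepa1-6 cells, so effects on growth were not matched.

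Total counts per library lay between 15568887 and 18008105. Of 10 hepatocyte and hepatoma genes, 7 had at least 10 counts in every library, Alb, Afp and Hnf4a among them, whereas Ttr and Apoa1 had at most 6. The T cell gene Cd3e and the macrophage gene Adgre1 had 0 counts in all libraries. The summed level of 6 immune markers, in CPM (counts scaled to the library total), was 11.5 to 11.6 in controls, 12.7 to 19.1 under lefamulin and 16.9 to 21.9 under tiamulin. Most of it was Cd68, at 7.66 to 19.6 CPM, while Ptprc, which all leukocytes carry, was at most at 0.934. That of 5 endothelial markers was 2.31 to 2.83, 6.49 to 7.28 and 4.85 to 6.77, with Pecam1 and Vwf the only ones above 8 counts in any library. The sum of 6 fibroblast markers went the other way, at 1503 to 1585, 1156 to 1207 and 1056 to 1147 CPM. It was nearly all Dcn (1027 to 1555 CPM), and Col1a2, Col3a1 and Lum had at most 2 counts. The part of other cells in the results was not tested. In bulk RNA, a change in the share of cells and a change in RNA per cell cannot be told apart.

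The mitochondrial genome is transcribed on both strands into long precursors that start in a control region. The tRNAs lie between most of the rRNA and mRNA genes, and their excision releases the neighbouring RNAs. The mRNAs encode core subunits of respiratory complexes I, III and IV and of the ATP synthase, the rRNAs build the mitochondrial ribosome, and pleuromutilins are known to bind the peptidyl transferase centre of bacterial ribosomes.

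The stretch from the end of mt-Rnr2, the large-subunit rRNA, to the start of mt-Nd1, a complex I subunit, is shown because mt-Rnr2 and the tRNA gene next to it fell under lefamulin whereas mt-Nd1 did not. The sequence is from GENCODE M21 transcripts of GRCm38, where the start and end of all 37 genes equalled the deposited ones, and lies at MT:2646-2780 on the plus strand. Capitals mark mt-Tl1, a leucine tRNA, with 30 bases of mt-Rnr2 before it and 30 bases of mt-Nd1 after it. No base separates the 3 genes.
mt-Rnr2 to mt-Nd1: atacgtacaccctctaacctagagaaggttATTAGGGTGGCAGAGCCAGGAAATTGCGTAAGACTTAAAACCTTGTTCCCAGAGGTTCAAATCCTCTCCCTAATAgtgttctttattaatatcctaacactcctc

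The first 30 bases of the mRNA genes with the largest changes in normalized count, mt-Nd2 (complex I) and mt-Co1 (complex IV), are given with the start codon in capitals. They lie at MT:3914-3943 and MT:5328-5357 on the plus strand. Of the 13 mRNA genes, 9 began with ATG and 10 were whole codons, and mt-Co3, mt-Nd4 and mt-Cytb each ended 1 base past a whole codon, with a T. Such stop codons are known to be completed by polyadenylation.
mt-Nd2: ATAaatcctatcacccttgccatcatctac
mt-Co1: ATGttcattaatcgttgattattctcaacc

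The minus-strand tRNAs that passed the test against control under either drug are shown with the anticodon in capitals, placed at the middle of the only loop of 7 bases closed by 5 complementary pairs. The asparagine tRNA mt-Tn (MT:5089-5159) and the cysteine tRNA mt-Tc (MT:5192-5257) lie in the group of tRNA genes between mt-Nd2 and mt-Co1. The proline tRNA mt-Tp (MT:15356-15422) is the gene of its strand nearest the control region.
mt-Tn: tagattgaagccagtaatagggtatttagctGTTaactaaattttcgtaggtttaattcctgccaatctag
mt-Tc: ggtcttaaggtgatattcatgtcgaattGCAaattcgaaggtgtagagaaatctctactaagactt
mt-Tp: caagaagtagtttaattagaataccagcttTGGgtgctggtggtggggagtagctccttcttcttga

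Levels per gene length were read from the deposited FPKM values (fragments scaled to gene length and library total). Among the mRNA and rRNA genes in the controls, mt-Co1 was highest at 8015 ± 448 FPKM (SD, n = 3), followed by mt-Nd1 at 4869 ± 385, mt-Cytb (complex III) at 3468 ± 289 and mt-Nd2 at 2229 ± 209. The complex I subunits mt-Nd4 and mt-Nd5 stood at 982 ± 85.9 and 702 ± 56.4 FPKM. Next came mt-Nd6 at 522 ± 72.3 FPKM, the complex I subunit of the minus strand, and mt-Rnr2 at 495 ± 18.9, which did not differ beyond their spread and changed places in control 1. The tRNA gene mt-Tp, at 535 ± 34.0 FPKM, stood near them. mt-Rnr1, the small-subunit rRNA, was at 220 ± 11.3 FPKM. How RNA was selected for the libraries is not given in the sources used here, and the rRNA levels depend on it.

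The remaining mRNA genes lay far lower. The complex IV subunits mt-Co2 and mt-Co3 were at 101 ± 31.4 and 24.4 ± 1.76 FPKM in controls, and the ATP synthase subunits mt-Atp6 and mt-Atp8 at 81.1 ± 33.0 and 5.62 ± 4.29. The complex I subunits mt-Nd4l and mt-Nd3 were at 42.9 ± 48.8 and 16.4 ± 1.18. mt-Co2 and mt-Atp6 did not differ beyond their spread, and mt-Nd4l could not be placed among its neighbours because control 3 had 531 counts where controls 1 and 2 had 72 and 80. All 6 of these genes lie in a row between mt-Co1 and mt-Nd4.

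**Figure D1:**
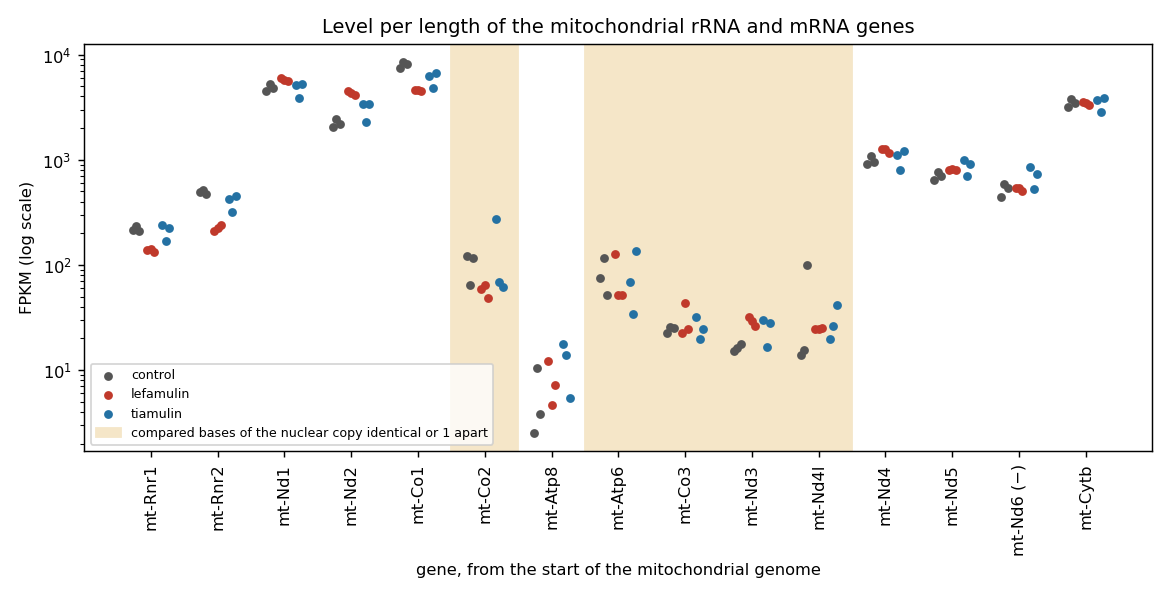
FPKM (log axis) of the 2 rRNA and 13 mRNA genes in genome order, 3 points for the libraries of each group. The 6 genes from mt-Co2 to mt-Nd4l lie at or below 270.2 FPKM in all libraries, and shading marks those whose nuclear copy is identical or differs by 1 base over the compared bases.

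This row of genes has a copy in the nuclear genome. The table holds 7 unprocessed pseudogenes on the minus strand of chromosome 1, between 24650616 and 24655278 in the deposited positions. Those are not GRCm38 positions, as only 2.76% of 52036 nuclear genes had the same start and end there, although the submitters' processing notes name mm10. Gm28661, Gm10925, Gm28437 and Gm10222 had 0 mismatches to mt-Co2, mt-Atp6, mt-Co3 and mt-Nd4l over 681, 678, 783 and 294 bases. Gm28439 had 0 mismatches to the first 876 of the 1378 bases of mt-Nd4. Of 6 spacings between neighbouring copies, 5 equalled the mitochondrial spacing to the base. The copied stretch corresponds to MT:6381-11042, which also holds mt-Atp8 and the tRNA genes mt-Ts1, mt-Td, mt-Tk, mt-Tg and mt-Tr.

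Few bases tell the other copies apart. Gm28438 differed from mt-Nd3 at 1 of 345 bases, T3C, counted from the 5′ end of the gene with the mitochondrial base first. Gm29216 covered bases 1054 to 1545 of mt-Co1 with 6 mismatches, all within the 30 bases printed here, where capitals mark the mismatched bases.
mt-Nd3: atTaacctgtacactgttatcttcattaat
Gm28438: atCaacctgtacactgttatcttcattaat
mt-Co1, bases 1054 to 1083: ggTCtAAcCggaAttgttttatccaactca
Gm29216: ggATtGGcAggaTttgttttatccaactca

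Counts on the 7 copies ranged from 164 to 2166. In control 1, 2 and 3 Gm10925 had 1244, 1389 and 1353 counts against 888, 1371 and 633 on mt-Atp6, and Gm28438 had 416, 537 and 412 against 92, 98 and 110 on mt-Nd3. How reads that match both places were assigned is not given in the sources used here, so counts on mt-Co2, mt-Atp8, mt-Atp6, mt-Co3, mt-Nd3 and mt-Nd4l are uncertain. The same holds for the parts of mt-Co1 and mt-Nd4 that are copied, which cover 31.8% and 63.6% of these genes. Genes also overlap, mt-Atp8 and mt-Atp6 by 43 bases, mt-Nd4l and mt-Nd4 by 7, and mt-Nd5 and mt-Nd6, on opposite strands, by 14. Whether counting used the strand is not given either, so minus-strand genes cannot be told apart from read-through of the plus strand.

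The library tiamulin 2 stood apart from the others of its group. The chi-square over genes, divided by its degrees of freedom, was 16.3 and 18.6 for its pairs with tiamulin 1 and 3, and 2.79 to 6.91 for all other pairs within groups. Its deviation from the group mean rose with the GC content of nuclear genes, with Spearman's rho of 0.687 across 10463 genes. In control 1, control 2, tiamulin 1 and tiamulin 3 rho was 0.487, -0.485, -0.526 and -0.569. The tested mitochondrial genes had a median GC content of 35.8%, against 49.2% for tested nuclear genes. The 7 mRNAs with over 1000 counts in every library were below their group mean in tiamulin 2, with deviations of -0.40 to -0.29 on the log2 scale. The main values for tiamulin include tiamulin 2, and values without it are given beside them.

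The share of counts on the 37 genes was 2.75% ± 0.18 in controls (SD, n = 3), 2.55% ± 0.080 under lefamulin and 2.52% ± 0.45 under tiamulin. It was 2.76%, 2.00% and 2.81% in tiamulin 1, 2 and 3, and the groups overlapped. Of these counts, mRNA genes held 95.8% to 97.9% in every library.

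Of the 37 genes, 25 passed the filter on low counts and were tested, the 13 mRNA genes, both rRNA genes and 10 tRNA genes. With edgeR's quasi-likelihood test and Benjamini-Hochberg adjustment over 14510 genes, 10 of the 25 passed an adjusted p of 0.05 under lefamulin against control, 3 higher and 7 lower. Over all tested genes, 13.1% passed, 7.09% higher and 6.00% lower. Under tiamulin 3 of the 25 passed, 2 higher and 1 lower, against 16.4% of all genes, 9.08% higher and 7.34% lower. Both comparisons use the same controls. The study's further threshold, an absolute log2(fold change) above 1, was passed by mt-Rnr2, mt-Tn and mt-Tw under lefamulin, against 1.51% of all genes. Under tiamulin 0 genes passed it (1.78% of all genes), 2 had such a fold change at an unadjusted p under 0.05 (2.78% of all genes), and DESeq2 also gave 0.

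The median log2(fold change) of the 25 genes was -0.33 under lefamulin and 0.18 under tiamulin, and that of all tested genes was 0.00 in both. For the 13 mRNA genes it was 0.19 and 0.09. Without tiamulin 2, with 26 of the 37 genes tested, 6 were higher and 2 lower under tiamulin, against 11.7% and 11.3% of all tested genes. Under lefamulin 6 were then higher and 7 lower, against 12.2% and 12.7%.

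**Figure D2:**
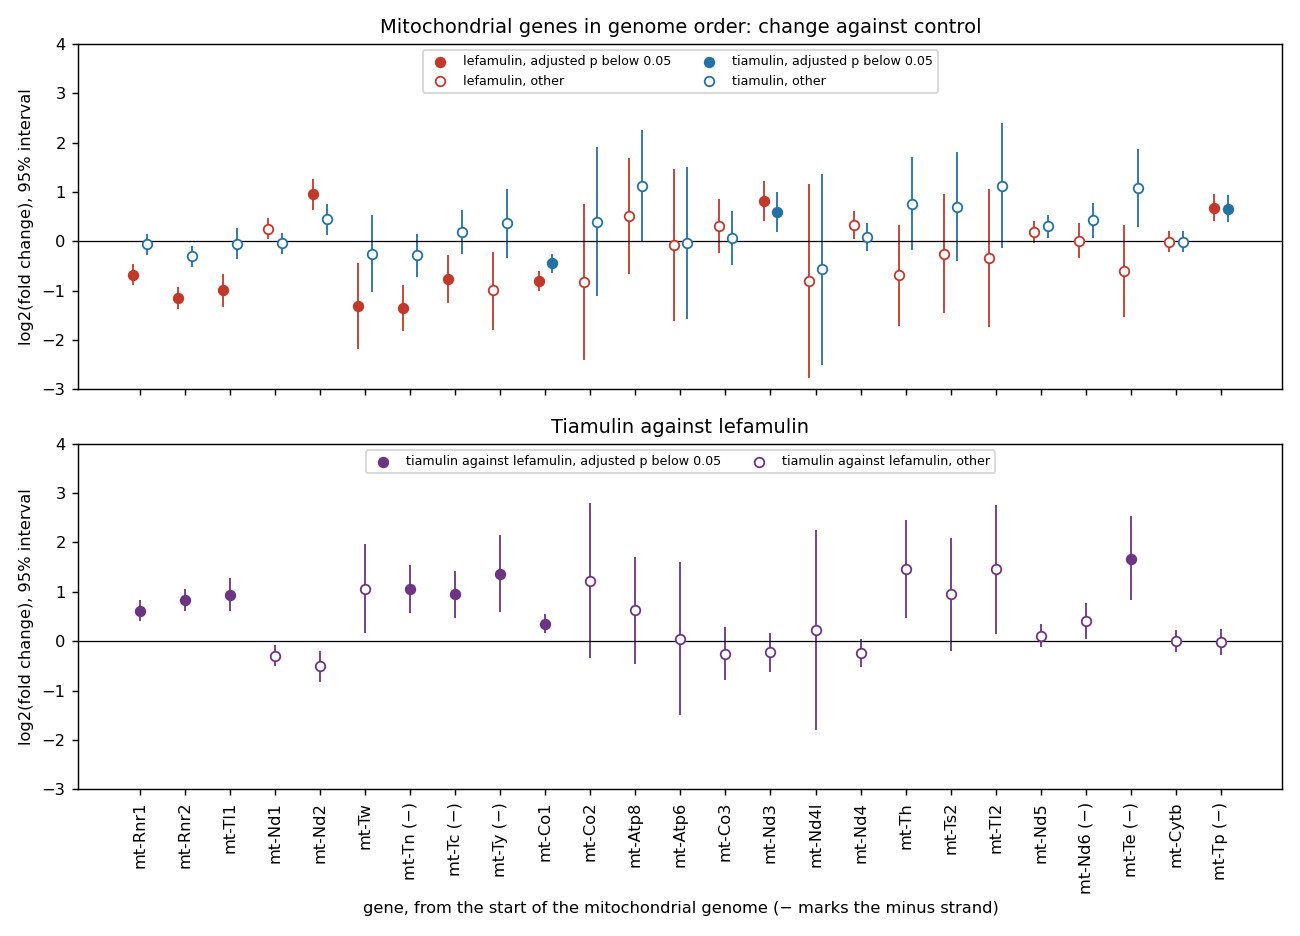
Log2(fold change) with 95% intervals of the 25 tested genes in genome order, against control (upper panel) and for tiamulin against lefamulin (lower panel), with filled points for an adjusted p below 0.05. Under lefamulin the points fall below 0 at the rRNA genes and mt-Tl1, above 0 at mt-Nd1 and mt-Nd2, and below 0 again from mt-Tw to mt-Co1.

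Both rRNAs fell under lefamulin, to 45.3% (mt-Rnr2) and 62.6% (mt-Rnr1) of control. The normalized level of mt-Rnr2 was 790, 815 and 757 CPM in control libraries, 335, 358 and 378 under lefamulin and 680, 507 and 723 under tiamulin. All lefamulin libraries lay below all others, and the tiamulin libraries lay between the other groups. Its fitted log2(fold change) under lefamulin was -1.14 ± 0.10 (SE) with an adjusted p of 8.0e-06. Under tiamulin it was -0.31 ± 0.10 with an adjusted p of 0.053, and without tiamulin 2 it was -0.17 with an adjusted p of 0.0090. Without tiamulin 3 it was -0.41 with an adjusted p of 0.011.

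mt-Rnr1 was at 208, 223 and 203 CPM in control libraries, 133, 136 and 128 under lefamulin and 230, 163 and 214 under tiamulin. It fell under lefamulin by 0.68 ± 0.099 on the log2 scale (adjusted p = 4.7e-04), with no overlap between the groups. Under tiamulin the value was -0.06 (95% interval -0.27 to 0.15), with overlap, and 0.07 without tiamulin 2. The count ratio of mt-Rnr1 to mt-Rnr2 was 0.268 ± 0.0055 in controls (SD, n = 3), 0.372 ± 0.030 under lefamulin and 0.318 ± 0.021 under tiamulin. The rRNA share of mitochondrial counts was 3.63% ± 0.22, 1.93% ± 0.13 and 3.31% ± 0.016.

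mt-Tl1, directly behind mt-Rnr2 in the sequence shown above, fell under lefamulin, as both rRNAs did. It had 155, 198 and 199 counts in control libraries, 76, 90 and 91 with lefamulin and 191, 132 and 181 with tiamulin. Its level under lefamulin was 50.3% of control, with a log2(fold change) of -0.99 ± 0.16 and an adjusted p of 8.4e-04. Under tiamulin the log2(fold change) was -0.05 (95% interval -0.37 to 0.27), and 0.08 without tiamulin 2. mt-Nd1 was at 4329, 5065 and 4654 CPM in controls, 5771, 5568 and 5408 with lefamulin and 4979, 3679 and 5014 with tiamulin. All lefamulin libraries lay above the controls, but the log2(fold change) of 0.25 ± 0.098 did not pass (adjusted p = 0.11). Without tiamulin 2 it passed, at 0.25 with an adjusted p of 8.4e-04. Under tiamulin it was -0.04 (95% interval -0.25 to 0.17), and 0.09 without tiamulin 2. The count ratio of mt-Rnr2 to mt-Nd1 was 0.169 ± 0.012 in controls, 0.0641 ± 0.0059 under lefamulin and 0.140 ± 0.0042 under tiamulin.

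Among the complex I subunits, mt-Nd2 rose most under lefamulin, to 194% of control. It was at 2122, 2555 and 2299 CPM in control libraries, 4719, 4533 and 4292 under lefamulin and 3577, 2377 and 3572 under tiamulin. Lefamulin libraries lay above all others, and tiamulin 1 and 3 lay between while tiamulin 2 lay among the controls. The fitted change on the log2 scale was 0.96 ± 0.14 under lefamulin, with an adjusted p of 0.0019. Under tiamulin it was 0.45 ± 0.14 and did not pass, with an adjusted p of 0.056. Without tiamulin 2 it was 0.62 with an adjusted p of 4.2e-04. The tiamulin value also passed without control 2, at 0.52 with an adjusted p of 0.046, and without lefamulin 1, at 0.45 with an adjusted p of 0.049.

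mt-Nd3 passed under both drugs, from few counts and with the nuclear copy noted above. It had 92, 98 and 110 counts in control libraries, 174, 169 and 149 under lefamulin and 172, 92 and 165 under tiamulin. The estimate of log2(fold change) was 0.82 ± 0.19 under lefamulin (adjusted p = 0.011) and 0.60 ± 0.19 under tiamulin (adjusted p = 0.047). Tiamulin 2 lay among the controls, and without it the value was 0.82 with an adjusted p of 1.9e-04. The tiamulin call was lost without any of the other 8 libraries, with values of 0.44 to 0.65 and adjusted p of 0.066 to 0.18. The lefamulin call was lost without lefamulin 1, at 0.76 with an adjusted p of 0.054.

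mt-Nd4 and mt-Nd5 did not pass under either drug. mt-Nd4 was at 1264, 1492 and 1322 CPM in control libraries, 1769, 1762 and 1610 under lefamulin and 1547, 1110 and 1694 under tiamulin. The change had a log2 value of 0.33 under lefamulin (95% interval 0.050 to 0.62, adjusted p = 0.12) and 0.09 under tiamulin (-0.19 to 0.38). Lefamulin libraries lay above all controls, tiamulin libraries did not. mt-Nd5 was at 1182, 1388 and 1290 CPM in controls, 1454, 1489 and 1464 with lefamulin and 1833, 1265 and 1665 with tiamulin. Its values were 0.19 under lefamulin (-0.037 to 0.42) and 0.30 under tiamulin (0.075 to 0.53, adjusted p = 0.069). Leaving out each library gave tiamulin values of -0.03 to 0.25 for mt-Nd4 and 0.19 to 0.44 for mt-Nd5. Without tiamulin 2 both genes passed under both drugs. mt-Nd4 then had values of 0.33 (adjusted p = 0.0089) and 0.25 (adjusted p = 0.047), and mt-Nd5 of 0.19 (adjusted p = 0.013) and 0.44 (adjusted p = 4.1e-05), under lefamulin and tiamulin.

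mt-Nd4l, which lies in the copied stretch, had 72, 80 and 531 counts in control libraries, 116, 121 and 123 with lefamulin and 97, 125 and 209 with tiamulin. The mt-Nd4l log2(fold change) of -0.80 and -0.57 had 95% intervals of -2.76 to 1.17 and -2.50 to 1.36, too wide to give a direction. Without tiamulin 2 the tiamulin value was -0.50. Without control 3 both values changed sign, to 0.75 under lefamulin and to 0.98 under tiamulin, the latter with an adjusted p of 0.032.

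mt-Nd6 of the minus strand was at 232, 306 and 279 CPM in controls, 281, 283 and 262 with lefamulin and 445, 272 and 381 with tiamulin. Tiamulin 1 and 3 lay above all other libraries and tiamulin 2 among them. The log2(fold change) was 0.02 under lefamulin (95% interval -0.34 to 0.37) and 0.43 under tiamulin (0.069 to 0.79, adjusted p = 0.10). Without tiamulin 2 the tiamulin value was 0.60 and passed, with an adjusted p of 0.024. Over all single libraries left out, it lay between 0.26 and 0.60. The count ratio of mt-Nd6 to mt-Cytb was 0.0681 ± 0.0041 in controls, 0.0694 ± 0.00098 under lefamulin and 0.0915 ± 0.011 under tiamulin, and that to the overlapping mt-Nd5 was 0.211 ± 0.013, 0.187 ± 0.0074 and 0.229 ± 0.014. Counts on all 9 minus-strand genes made up 1.16% ± 0.057, 1.34% ± 0.035 and 1.71% ± 0.15 of mitochondrial counts.

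mt-Co1, the catalytic subunit of complex IV and the gene with the most counts of the 37, fell under both drugs. It was at 11676, 13031 and 12624 CPM in control libraries, 7226, 7207 and 6936 under lefamulin and 9681, 7403 and 10274 under tiamulin. Every treated library lay below every control, and every tiamulin library lay above every lefamulin library. The level was 57.2% of control under lefamulin, with a log2(fold change) of -0.80 ± 0.093 and an adjusted p of 8.9e-05. It was 73.3% under tiamulin, with -0.45 ± 0.092 and an adjusted p of 0.0048, and without tiamulin 2 it fell by 0.32 (adjusted p = 1.7e-06). Relative to the summed counts of the 13 mRNAs, the values were -0.71 (adjusted p = 0.0015) and -0.33, which did not pass (adjusted p = 0.065). mt-Co1 itself held 46.0% to 47.4% of those counts in controls, so its fall lowers this reference and makes these values smaller.

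The other complex IV subunits did not pass under either drug. mt-Co2 had 1445, 764 and 1436 counts in controls, 633, 728 and 546 with lefamulin and 3063, 746 and 716 with tiamulin, with tiamulin 1 far above the rest. Its log2(fold change) was -0.82 (95% interval -2.40 to 0.75) and 0.40 (-1.12 to 1.92). Without tiamulin 2 the tiamulin value was 0.72, and without tiamulin 1 it was -0.65. mt-Co3 ranged from 245 to 573 counts over all libraries, with values of 0.31 (-0.23 to 0.85) and 0.06 (-0.48 to 0.61), the latter 0.22 without tiamulin 2. For mt-Co2 the intervals include the change of mt-Co1 under each drug. For mt-Co3 the interval under tiamulin includes it and that under lefamulin does not.

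mt-Cytb, the mitochondrially encoded subunit of complex III, was measured with small error and did not pass under either drug. It was at 3657, 4319 and 3984 CPM in controls, 4096, 4014 and 3774 with lefamulin and 4264, 3223 and 4448 with tiamulin, and the groups overlapped. Its fitted log2(fold change) was -0.01 (95% interval -0.22 to 0.21) under lefamulin and 0.00 (-0.22 to 0.21) under tiamulin. Without tiamulin 2 the tiamulin value was 0.13 (adjusted p = 0.18). When GC content and gene length entered as offsets, the lefamulin value was -0.09 with an adjusted p of 0.033, and the tiamulin value was 0.07 (adjusted p = 0.083).

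The ATP synthase subunits gave few and scattered counts. mt-Atp6 ranged from 369 to 1576 counts, with values of -0.08 (95% interval -1.62 to 1.47) under lefamulin and -0.03 (-1.57 to 1.51) under tiamulin, the latter 0.34 without tiamulin 2. Leaving out each library gave -0.65 to 0.28 under lefamulin and -0.66 to 0.34 under tiamulin. mt-Atp8 had 9, 37 and 14 counts in controls, 39, 16 and 24 with lefamulin and 60, 45 and 19 with tiamulin. Its values were 0.51 (-0.67 to 1.69) and 1.13 (0.014 to 2.26, adjusted p = 0.16). The tiamulin value passed without control 2, at 1.94 (adjusted p = 0.037), and without tiamulin 3, at 1.49 (adjusted p = 0.049). It was 1.04 without tiamulin 2 and did not pass.

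**Figure D3:**
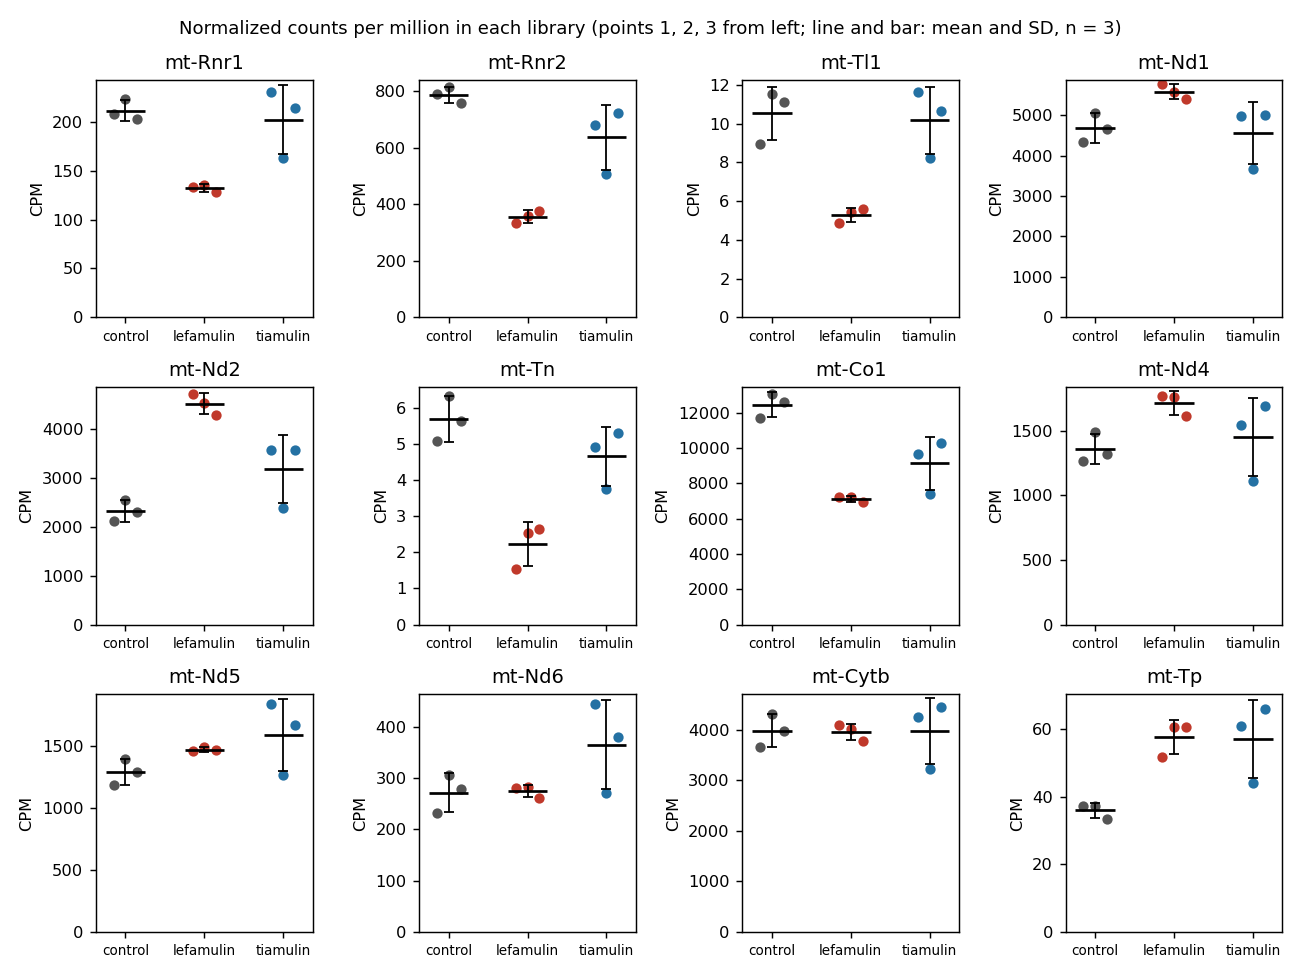
Normalized CPM of 12 genes in each library, with the mean (line) and SD (bar) of each group of 3. Lefamulin libraries lie below all others for mt-Rnr1, mt-Rnr2, mt-Tl1, mt-Tn and mt-Co1 and above all others for mt-Nd1 and mt-Nd2. Tiamulin 2, the middle tiamulin point, is the lowest of its group in each panel.

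The tRNA genes, 59 to 75 bases long, gave few counts. Of 22, 5 had 0 counts in all libraries: mt-Tf, mt-Ts1, mt-Td, mt-Tk and mt-Tg. A further 7 had at most 16 counts in any library and did not pass the filter with all libraries, mt-Ta, mt-Tt, mt-Ti, mt-Tm, mt-Tq, mt-Tr and mt-Tv. The fragment lengths of the libraries, which bear on counts of such short genes, are not given in the sources used here.

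mt-Tp had the most counts of the tRNA genes and rose under both drugs. It had 647, 640 and 598 counts in controls, 812, 1008 and 990 with lefamulin and 1004, 704 and 1123 with tiamulin, with all treated libraries above all controls. Its level was 161% of control under lefamulin and 159% under tiamulin. The fitted change on the log2 scale was 0.68 ± 0.12 (adjusted p = 0.0025) and 0.67 ± 0.12 (adjusted p = 0.0022), and without tiamulin 2 the tiamulin value was 0.82 (adjusted p = 6.0e-09). mt-Tt, which abuts mt-Tp on the other strand, had at most 13 counts in any library.

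Of the 5 tRNA genes between mt-Nd2 and mt-Co1, mt-Tn, mt-Tc and mt-Tw fell under lefamulin, mt-Ty did not pass and mt-Ta was below the filter on low counts. mt-Tn had 88, 109 and 101 counts in controls, 24, 42 and 43 with lefamulin and 81, 60 and 90 with tiamulin. It fell to 39.5% of control under lefamulin, with a log2(fold change) of -1.34 ± 0.22 and an adjusted p of 0.0010, and under tiamulin the value was -0.29 (95% interval -0.72 to 0.14), and -0.15 without tiamulin 2. mt-Tc had 73, 73 and 67 counts in controls, 46, 36 and 34 with lefamulin and 85, 53 and 91 with tiamulin. It fell by 0.76 ± 0.23 under lefamulin (adjusted p = 0.038), and the tiamulin value was 0.18 (-0.26 to 0.63), and 0.37 without tiamulin 2. The mt-Tc call was lost without control 1, 2 or 3 or lefamulin 2 or 3, with values of -0.82 to -0.67 and adjusted p of 0.074 to 0.14.

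Of the same group, mt-Tw, a tryptophan tRNA on the plus strand behind mt-Nd2, had 26, 23 and 29 counts in controls, 10, 11 and 8 with lefamulin and 33, 11 and 18 with tiamulin. Its value under lefamulin was -1.31 ± 0.41 (adjusted p = 0.047), and the call was lost without any single control or lefamulin library or tiamulin 3 (-1.39 to -1.18, adjusted p of 0.053 to 0.15). mt-Ty, a tyrosine tRNA, had 15 to 27 counts in controls, 9 to 12 under lefamulin and 19 to 34 under tiamulin, with a value of -0.995 ± 0.37 under lefamulin that did not pass (adjusted p = 0.091). mt-Ta, in the same group, had 2 to 16, 0 to 3 and 4 to 9 counts. It passed as lower under lefamulin when control 2, with 2 counts, was left out. It then met the filter only through controls 1 and 3, with 16 and 12 counts, where it is highest. That call is therefore no support for a fall.

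The 3 tRNA genes between mt-Nd4 and mt-Nd5, for histidine (mt-Th), serine (mt-Ts2) and leucine (mt-Tl2), did not pass under either drug. Tiamulin 1 had 315, 98 and 318 counts on them, whereas no other library exceeded 124, 38 and 95. The estimate of log2(fold change) under tiamulin was 0.77 for mt-Th (95% interval -0.17 to 1.70), 0.70 for mt-Ts2 (-0.40 to 1.81) and 1.12 for mt-Tl2 (-0.14 to 2.39). Without tiamulin 2 these were 1.09, 1.05 and 1.49, and none passed. The lowest values when each library was left out were 0.0082, -0.45 and 0.12. Without tiamulin 1 the mt-Th value under lefamulin passed, at -0.69 (adjusted p = 0.036). mt-Te, a glutamate tRNA of the minus strand next to mt-Nd6, had 20, 14 and 7 counts in controls, 9, 8 and 8 with lefamulin and 29, 29 and 24 with tiamulin. It reached the filter on low counts in every tiamulin library, in no lefamulin library and not in control 3. With all libraries it was thus tested only through tiamulin, where it is high, and its tiamulin values are not independent of the filter. Its tiamulin value was 1.08 ± 0.37 (adjusted p = 0.059), which passed without control 1 at 1.46 (adjusted p = 0.037). Without tiamulin 2 it did not pass (adjusted p = 0.11).

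The shares of mt-Co1 and mt-Nd2 in the mRNA counts separated the 3 groups in every library. The shares below are of counts on the 13 mRNAs, not corrected for gene length, and were chosen after their values had been seen, so they are given without a test. mt-Co1 held 46.0% to 47.4% in controls, 28.4% to 29.1% under lefamulin and 36.4% to 38.1% under tiamulin. mt-Nd2 held 8.62% to 9.02%, 18.0% to 18.5% and 12.2% to 13.4%. The count ratio of mt-Co1 to mt-Nd2 was 5.36 ± 0.23 in controls (SD, n = 3), 1.58 ± 0.043 under lefamulin and 2.90 ± 0.21 under tiamulin. Tiamulin 2 was the tiamulin library nearest the controls in both shares and in the ratio, which was 3.11 beside 2.71 and 2.88 in tiamulin 1 and 3. mt-Cytb held 14.9% to 15.3%, 15.8% to 16.1% and 16.02% to 16.6%, with lefamulin and tiamulin overlapping.

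**Figure D4:**
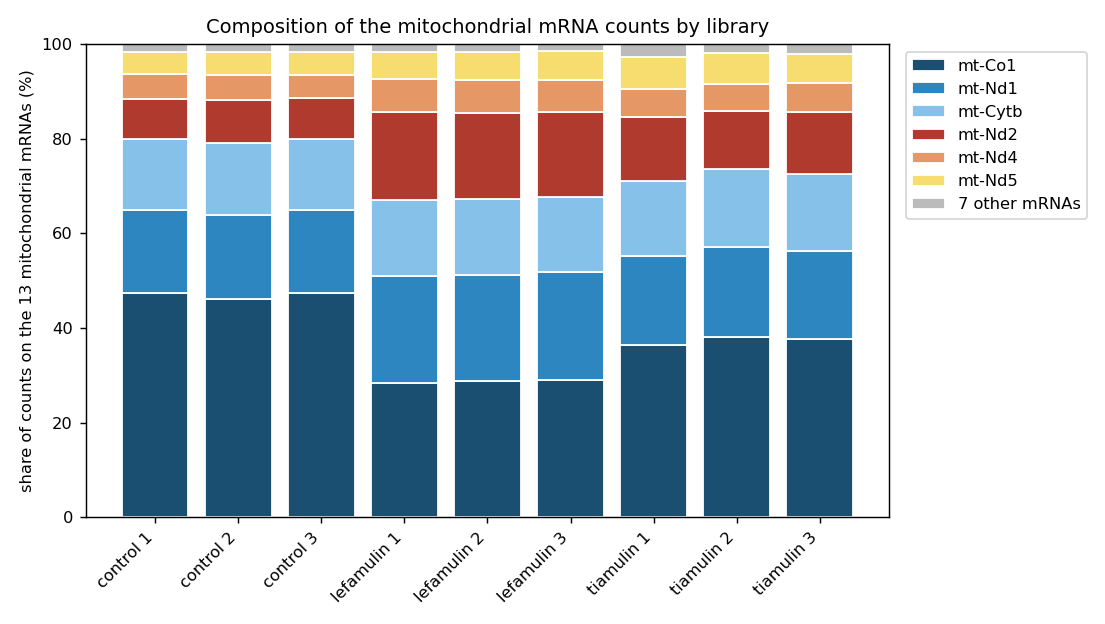
Share of counts on the 13 mitochondrial mRNAs held by 6 genes and by the 7 others, in each library. mt-Co1 holds 46.0% to 47.4% of counts in control libraries, 28.4% to 29.1% under lefamulin and 36.4% to 38.1% under tiamulin, and mt-Nd2 is largest under lefamulin.

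Per length, the order of the highest mRNAs also differed between the groups. Under lefamulin mt-Nd1 was at 5798 ± 184 FPKM (SD, n = 3), above mt-Co1 at 4582 ± 101, mt-Nd2 at 4323 ± 202 and mt-Cytb at 3442 ± 143. Under tiamulin the order was that of the controls, with mt-Co1 at 5870 ± 951, mt-Nd1 at 4736 ± 770, mt-Cytb at 3459 ± 560 and mt-Nd2 at 3042 ± 650. Between neighbours the group ranges overlapped, as all 4 genes were lowest in tiamulin 2, but the order was the same in each tiamulin library.

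The drugs, 1 pair, were compared directly at the same mass dose and time, not at an equal effect on growth. Under tiamulin 8 of the 25 genes were higher than under lefamulin, and 0 lower. Of all tested genes 4.90% passed, 2.85% higher and 2.05% lower. The 8 genes were mt-Rnr1, mt-Rnr2, mt-Co1, mt-Tl1, mt-Tn, mt-Tc, mt-Ty and mt-Te. Of these, mt-Te met the filter on low counts only through tiamulin, where it is high. Beside the 0 lower genes by edgeR's test, 2 were lower at an unadjusted p under 0.05 (9.96% of all genes), and DESeq2 called 2 lower, mt-Nd1 and mt-Nd2 (3.90% of its genes). Of the 8, mt-Te, mt-Tn and mt-Ty passed the threshold on the fold change, against 0.227% of all genes. Without tiamulin 2, 8 were higher and 1 lower, against 4.93% and 3.86% of all tested genes.

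The clearest differences lay in the ribosomal RNAs. The log2(fold change) of tiamulin against lefamulin was 0.84 ± 0.10 for mt-Rnr2 (adjusted p = 7.8e-04), 0.61 ± 0.099 for mt-Rnr1 (adjusted p = 0.0037) and 0.94 ± 0.16 for mt-Tl1 (adjusted p = 0.0045). All tiamulin libraries lay above all lefamulin libraries for these genes. These 3 calls held without any single library, at 0.98, 0.75 and 1.07 without tiamulin 2. Relative to the summed mRNA counts mt-Rnr2 alone passed, and mt-Rnr1 and mt-Tl1 had values of 0.64 (adjusted p = 0.060) and 0.96 (adjusted p = 0.054).

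The other differences rested on less. mt-Co1 was 128% of the lefamulin level under tiamulin, with 0.36 ± 0.092 and an adjusted p of 0.045. This call was lost without control 2 or 3, any lefamulin library, or tiamulin 1 or 3, with values of 0.26 to 0.37 and adjusted p of 0.050 to 0.15, and without tiamulin 2 the value was 0.49 (adjusted p = 1.2e-08). mt-Tn was higher by 1.06 ± 0.22 (adjusted p = 0.017), and its call was lost without lefamulin 1 (0.85, adjusted p = 0.079) or 2 (1.15, adjusted p = 0.051). mt-Tc was higher by 0.95 ± 0.22 (adjusted p = 0.027), and its call was lost without lefamulin 2 or 3 or tiamulin 1 or 3 (0.83 to 0.88, adjusted p of 0.063 to 0.13). Without tiamulin 2 both genes passed, at 1.19 for mt-Tn and 1.14 for mt-Tc.

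With at most 34 counts in any library, mt-Ty was higher by 1.36 ± 0.36 (adjusted p = 0.045) and mt-Te by 1.68 ± 0.40 (adjusted p = 0.027). Since mt-Te was tested only through tiamulin, its call is not independent of the filter and gives no support on its own. When each library was left out, the mt-Ty call held without control 2 or tiamulin 1 and was lost without any other, at 1.16 to 1.49 with adjusted p of 0.055 to 0.15. The mt-Te call was lost without any lefamulin library or tiamulin 1, at 1.63 to 1.76 with adjusted p of 0.068 to 0.12.

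For the genes that did not pass between the drugs, the intervals differ in width. mt-Cytb differed by 0.01 (95% interval -0.21 to 0.22), mt-Tp by -0.02 (-0.28 to 0.25) and mt-Nd5 by 0.11 (-0.12 to 0.34). mt-Nd2 was at -0.51 (-0.82 to -0.19, adjusted p = 0.072) and mt-Nd1 at -0.29 (-0.51 to -0.080, adjusted p = 0.11), and for both all tiamulin libraries lay below all lefamulin libraries. With the GC and length offsets mt-Cytb passed, at 0.16 with an adjusted p of 5.9e-04, and without tiamulin 2 it was 0.14 and did not pass. Without tiamulin 2, mt-Nd2 passed at -0.34 (adjusted p = 0.029) and mt-Nd5 at 0.25 (adjusted p = 0.012). Over all single libraries left out, mt-Nd2 lay between -0.60 and -0.34 and mt-Nd5 between -0.0028 and 0.25. mt-Nd6 was at 0.41 (0.053 to 0.77) and mt-Nd4 at -0.24 (-0.52 to 0.043). mt-Nd3, mt-Co2, mt-Co3, mt-Nd4l, mt-Atp6, mt-Atp8, mt-Th, mt-Ts2, mt-Tl2 and mt-Tw had standard errors of 0.18 to 0.84 on the log2 scale.

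For 16 of 25 genes, no lefamulin library overlapped the range of the controls, against 37.6% of all tested genes. The same held for 4 genes for tiamulin against control, against 32.3%, and for 13 for tiamulin against lefamulin, against 26.5%.

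A list of 54 nuclear genes that maintain mitochondrial DNA or make, process and stabilise its RNA was tested in the same fit. Under lefamulin 2 were higher and 1 lower, and under tiamulin 2 were higher and 1 lower, against the same backgrounds of all tested genes given above. Without tiamulin 2 the counts were 6 higher and 5 lower under lefamulin, and 2 higher and 3 lower under tiamulin, against the backgrounds without that library. When offsets took up GC content and length, 5 were higher and 4 lower under lefamulin (10.3% and 14.4% of all genes) and 3 higher and 7 lower under tiamulin (12.9% and 14.0%). The median log2(fold change) of the list was 0.00 and -0.01. Between the drugs 0 passed with edgeR's test, 11 had an unadjusted p under 0.05 (21.6% of all genes), and DESeq2 called 1 higher and 1 lower (5.55% and 3.90%).

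Nsun3, which modifies the wobble base of mitochondrial methionine tRNA, passed under both drugs. It was at 6.18, 8.09 and 6.98 CPM in controls, 9.20, 10.5 and 12.9 with lefamulin and 11.1, 8.87 and 10.9 with tiamulin, with all treated libraries above all controls. Its log2(fold change) was 0.62 ± 0.16 (adjusted p = 0.018) and 0.54 ± 0.16 (adjusted p = 0.030). The calls were lost without control 1 or 3, and also without lefamulin 2 or 3 and tiamulin 1 or 3, respectively, at 0.45 to 0.64.

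Under lefamulin Slirp, which binds and stabilises mitochondrial mRNAs, was higher by 0.69 ± 0.21 (adjusted p = 0.042), and Twnk, the helicase of mitochondrial DNA replication, was lower, at -0.27 ± 0.065 (adjusted p = 0.014). The Slirp call was lost without control 1 or 3 or any lefamulin library (0.61 to 0.78), and the Twnk call without control 2 or 3 or lefamulin 2 or 3 (-0.27 to -0.24). Under tiamulin Primpol, a primase and polymerase, was higher by 0.53 ± 0.14 (adjusted p = 0.021), and Mterf2, of the mitochondrial transcription termination factor family, was lower, at -0.52 ± 0.15 (adjusted p = 0.031). The Primpol call was lost without control 1 or 3 or tiamulin 1 or 3 (0.39 to 0.51), and the Mterf2 call without control 2 or 3 or tiamulin 3 (-0.54 to -0.42). Tfam and Polrmt, which drive transcription of the genome, and Lrpprc, the partner of Slirp, did not pass in any comparison.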

How the data were processed

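RNA-Seq of 9 Hepa1-6 libraries, grouped by GEO's labels into control, lefamulin and tiamulin, was analysed. The authors deposited raw read counts per gene for 56748 genes, and FPKM values, which followed from these counts, the gene lengths and a total for each library. The submitters' processing notes name CASAVA 1.8, fastp, HISAT2 2.0.5, featureCounts 1.5.0-p3, DESeq2 1.20.0 and mm10. Counts were normalized with TMM (factors 0.994 to 1.01) and tested with edgeR 4.0.16 (R 4.3.3), using filterByExpr, a robust quasi-likelihood fit to all 9 libraries with a term for group alone, and Benjamini-Hochberg adjustment over 14510 genes. A call is an adjusted p below 0.05. The labels do not state that libraries came from separate cultures, so p-values measure the spread between these libraries, which may be technical. Pairs within groups differed by more than sampling noise.

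GC content and sequences came from GENCODE M21, matched by Ensembl ID for all 37 genes and the 7 copies. Replicate numbers did not pair the libraries, with correlations of -0.47 to 0.024 between same-numbered libraries of different groups.

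All 37 genes were named by a fixed rule, tRNA genes in detail where they had at least 10 counts in every library or were called, and nuclear genes where they were called. The members, the list of 54 nuclear genes and the markers were chosen with earlier results of these data known. Alternatives were DESeq2 1.42.0, DESeq2's size factors, no TMM factors, library sizes without mitochondrial genes or from mitochondrial mRNA counts, other filters, the groups compared alone, a replicate block, offsets for GC content and gene length, limma 3.58.1 on log2(FPKM + 1) and log2(FPKM + 0.1), and leaving out each library.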

Additional observations from a re-analysis of the deposited data

How the results depend on the processing

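Calls of mt-Co1, mt-Nd2, mt-Rnr1, mt-Rnr2, mt-Tl1, mt-Tn and mt-Tp under lefamulin, and of mt-Tp under tiamulin, held under all 23 alternatives. For lefamulin the log2(fold change) of mt-Co1 was -0.89 to -0.71, of mt-Nd2 0.88 to 1.06 and of mt-Rnr2 -1.23 to -1.04. Among the 25 mitochondrial genes, the value of mt-Nd4l under tiamulin turned to 0.98 and passed without control 3, and it lay between -0.99 and 0.98 when each library was left out. Values that passed in no alternative also changed sign in some, among them mt-Rnr1, mt-Nd1, mt-Tl1, mt-Cytb, mt-Atp6, mt-Co2 and mt-Co3 under tiamulin and mt-Nd4l, mt-Nd6 and mt-Atp6 under lefamulin. The other changes are counts of genes called, given as higher and lower. For the mitochondrial genes, the counts were 3 and 7 under lefamulin, 2 and 1 under tiamulin, and 8 and 0 for tiamulin against lefamulin. The share of all tested genes called in the same direction under the same setting stands in brackets. They became 4 and 2 under tiamulin with DESeq2 (9.59% and 7.89%) or without a filter (5.01% and 3.83%), with 2 (3.90%) and 1 (1.62%) lower against lefamulin. With GC content and length as offsets, 6 and 8 passed under lefamulin (10.3% and 14.4%), 7 and 2 under tiamulin (12.9% and 14.0%), and 12 and 2 against lefamulin (7.98% and 5.30%). With these offsets and the replicate block, the counts were 6 and 8 (9.39% and 13.1%), 8 and 2 (12.1% and 12.7%), and 12 and 2 (6.62% and 4.30%). With the offsets, no block and tiamulin 2 left out, an alternative chosen after seeing the data, they were 6 and 9 (11.7% and 16.5%), 5 and 2 (12.4% and 14.2%), and 11 and 2 (7.31% and 5.07%). With the groups compared alone, 6 were higher under lefamulin (12.4%), 1 under tiamulin (6.70%) and 4 against lefamulin (1.21%). Relative to mitochondrial mRNA counts, 5 and 0 passed under tiamulin (3.27% and 0.662%) and 1 was higher against lefamulin (0.0138%). With the replicate block alone, 1 was higher under tiamulin (7.04%) and 5 against lefamulin (1.14%), and no called gene turned.

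Leaving out each library gave 2 to 6 higher (3.73% to 12.2%) and 5 to 8 lower (2.86% to 12.7%) under lefamulin. It gave 1 to 6 (5.60% to 11.7%) and 1 to 2 (4.25% to 11.3%) under tiamulin, and 3 to 8 (0.828% to 4.93%) and 0 to 1 (0.526% to 3.86%) for tiamulin against lefamulin. The highest of these shares of all genes came without tiamulin 2, as did the most calls under tiamulin.

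The nuclear list had 2 and 1 called under each drug and 0 and 0 between them. DESeq2 gave 1 and 2 under lefamulin (7.32% and 6.69% of all tested genes) and 1 and 1 between the drugs (5.55% and 3.90%). Limma on log2(FPKM + 1) gave 0 and 2 under lefamulin (6.44% and 5.29%) and 0 higher under tiamulin (8.48%), and limma on log2(FPKM + 0.1) gave the same counts (6.45%, 5.19% and 8.56%). Without a filter, 2 and 1 passed between the drugs (2.62% and 1.62%). GC and length offsets gave 5 and 4 under lefamulin, 7 lower under tiamulin and 4 and 4 between the drugs. With the replicate block and offsets these were 4 and 4, 5 lower, and 1 and 2. With offsets, no block and tiamulin 2 left out they were 6 and 8, 7 lower, and 2 and 3, and the shares of all genes for these 3 settings are those given above. The groups compared alone gave 6 and 3 under lefamulin (12.4% and 12.5%) and 1 and 0 under tiamulin (6.70% and 5.26%). Relative to mitochondrial mRNA counts, 1 and 0 passed under lefamulin (1.85% and 0.435%) and under tiamulin (3.27% and 0.662%). The replicate block gave 1 higher under lefamulin (4.93%) and 0 and 0 under tiamulin (7.04% and 5.44%). Leaving out each library gave 0 to 6 and 0 to 5, 0 to 2 and 0 to 3, and 0 to 1 and 0 to 2, against the ranges above.

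The count ratio of mt-Nd4l to mt-Nd4 in controls was 0.00961, and 0.0032 without control 3. That of mt-Atp8 to mt-Atp6 under tiamulin was 0.0706, and 0.0449 without tiamulin 2. Ratios in FPKM were not run, since they differ from count ratios by a constant. At these depths 5 of the 22 tRNA genes had no count, and 7 were below the filter with all libraries. Of the 7, mt-Ta entered some other fits and passed as lower under lefamulin without control 2, and with the offsets and tiamulin 2 left out. It met the filter there only through controls, where it is highest, so these calls are no support for a fall. The cause of these changes was not tested.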
